A study of Mus musculus with 4 samples.

Results

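The mouse major histocompatibility complex (MHC) was taken here as the 42 annotated gene records on chromosome 17 whose symbols start with H2-, and as the stretch from the first to the last of them. These were defined by name and position, out of 34653 gene records on the autosomes. That rule was chosen with earlier results of these data known. The stretch ran from 34075766 to 37620497 on mm9 (GENCODE annotation of the same build), a length of 3.54 Mb with 328 gene records. Of the RAD21 binding sites, 46 of 15311 in embryonic stem cells (ESCs) and 27 of 11022 in embryoid bodies (EBs) had their summit in it.

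MHC class I molecules display peptides from inside the cell on nearly all nucleated cells, and class II molecules display peptides from taken-up proteins on professional antigen-presenting cells. The class III genes between them code for complement factors, cytokines, heat shock proteins and others and have no common function. RAD21 is the cleavable subunit of cohesin, a ring complex that holds sister chromatids together and, where it is stopped by the insulator protein CTCF, marks the bases of chromatin loops. In lymphoid and other cells cohesin and CTCF are known to bind between the class II genes, and MHC genes are little expressed in undifferentiated ESCs.

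RAD21 was mapped by ChIP-seq with an antibody against GFP in the mouse ESC line R1/E, into which a bacterial artificial chromosome (BAC) with the Rad21 gene fused to GFP had been introduced. All 4 libraries come from cells with this transgene. The ESC group was harvested at day 0 and kept undifferentiated with LIF. The EB group was grown from the same cells as aggregates to day 12 of differentiation and is a mixture of cell types. Each cell type had 1 RAD21 library and 1 control library made with goat IgG, whose description also speaks of input DNA. Resistant cells were sorted for GFP, and whether the line used is 1 clone is not given in the sources used here. No expression was measured in these libraries, so that neither the cell types nor the activity of the MHC genes could be checked.

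Autosomal reads numbered 13714772 (ESC RAD21), 7740389 (EB RAD21), 12602155 (ESC IgG) and 6929293 (EB IgG). With 1 library per group no test was possible. Every difference below is between libraries, intervals are exact 95% intervals, and they cover counting error only. Reads are given in the order ESC RAD21, EB RAD21, ESC IgG and EB IgG, within 250 bp of a summit or within 1000 bp of a gene start. A ratio compares reads scaled to the autosomal total of each library. A site or gene start was called higher or lower in EBs when its ratio of EB to ESC RAD21 was at least 2-fold and the interval lay on 1 side of 1.

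A motif is a match of a CTCF weight matrix within 150 bp of the summit, at a score that a random genome position reached at a rate of 1e-05. The match is shown here for 8 sites that had one and whose scores were among the 2 highest of their part and list. Of the other sites with such scores, EB site 2, ESC site 7 and EB site 11 had no match at this rate. ESC site 2 had a match that is not shown, and EB sites 20 and 27 overlap ESC sites 36 and 46. Each line is read 5′ to 3′ in the direction of the match, on mm9, and the 20 bases of the match are in capitals. ESC site 3 lies in a UTR and is shown with fewer flanking bases.
ESC site 1 (K end, chr17:34105593-34105672, plus strand): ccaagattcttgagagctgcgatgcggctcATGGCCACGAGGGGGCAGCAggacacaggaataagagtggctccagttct
ESC site 3 (H2-DMa, chr17:34272355-34272384, plus strand): cccgaCCTTCCACCAGGGGGCGGAGgtctc
EB site 3 (between H2-DMb1 and Tap1, chr17:34307867-34307946, plus strand): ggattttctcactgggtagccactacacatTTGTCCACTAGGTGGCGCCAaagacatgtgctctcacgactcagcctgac
EB site 5 (next to H2-Ea-ps, chr17:34486526-34486605, minus strand): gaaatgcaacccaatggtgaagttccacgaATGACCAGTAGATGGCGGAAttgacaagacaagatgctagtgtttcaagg
ESC site 10 (class III, chr17:34576905-34576984, plus strand): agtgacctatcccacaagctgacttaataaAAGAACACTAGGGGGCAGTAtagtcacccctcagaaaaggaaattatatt
ESC site 19 (class III, chr17:35315598-35315677, plus strand): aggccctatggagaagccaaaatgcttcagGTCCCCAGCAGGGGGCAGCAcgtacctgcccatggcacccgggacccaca
ESC site 36 (next to H2-T24, chr17:36134103-36134182, plus strand): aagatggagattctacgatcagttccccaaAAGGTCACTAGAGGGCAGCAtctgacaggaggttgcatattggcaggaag
ESC site 46 (class I, chr17:37340729-37340808, minus strand): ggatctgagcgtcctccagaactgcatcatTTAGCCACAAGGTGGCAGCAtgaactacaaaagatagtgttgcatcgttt

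RAD21 sites were dense per base and sparse per gene in the stretch. There were 13.0 ESC sites per Mb, against 6.25 over all autosomes, and 7.62 EB sites per Mb against 4.46. Gene density was 92.5 gene records per Mb against 14.3, however, so that there were 14.0 ESC sites per 100 gene records against 43.5, and 8.23 EB sites against 31.1. The stretch had 1.70 ESC sites for each EB site and the autosomes had 1.4. The ESC libraries were the deeper ones, and the part of depth in the numbers of sites was not tested. Of the ESC sites 22 lay in genes, 3 of them in H2- genes, and 24 between genes, and of the EB sites 15 lay in genes, 2 of them in H2- genes, and 12 between.

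**Figure D1:**
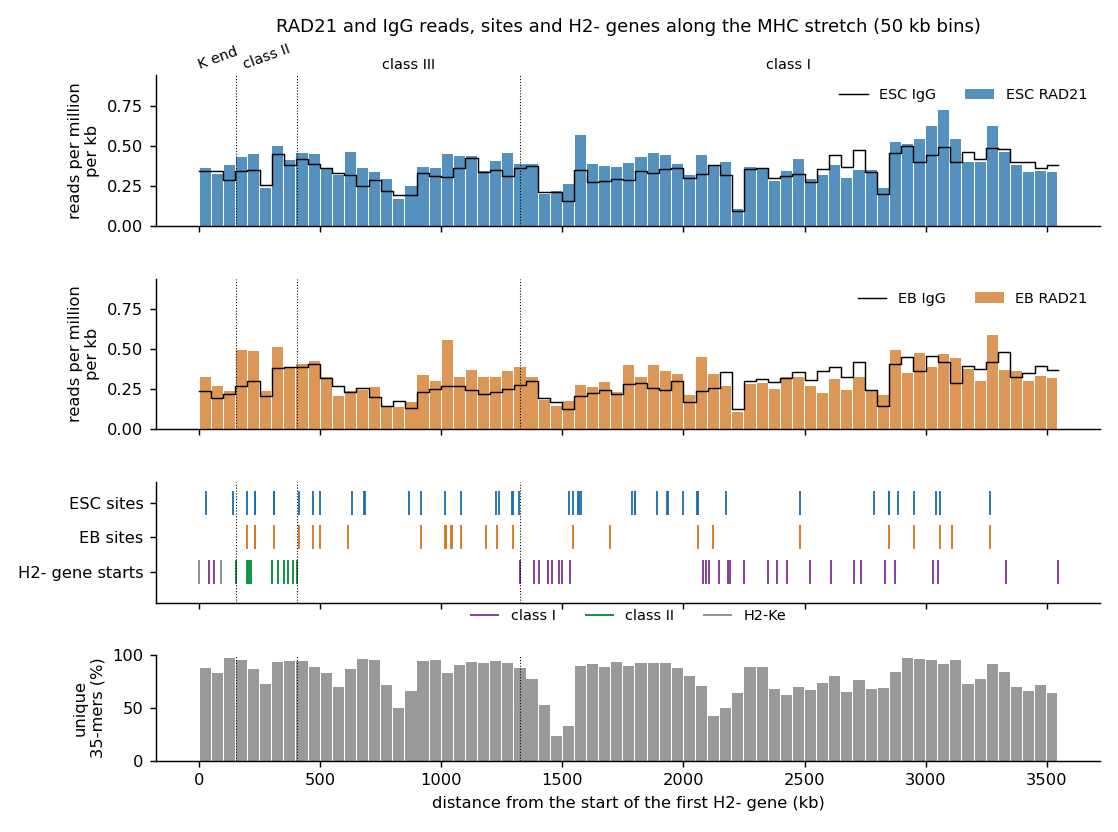
RAD21 and IgG reads per kb, scaled to the autosomal reads of each library (RPM), in 50 kb bins along the stretch (RAD21 as bars and IgG as black lines, ESC on top and EB beneath), the summits of the 46 ESC and 27 EB sites and the 42 H2- gene starts as ticks, and the percentage of 35 base words that occur once in the genome (bottom). The x axis is the distance in kb from the start of the first H2- gene, and dotted lines part the K end, class II, class III and class I. Sites stand in clusters away from most H2- gene starts, and the unique share falls at the Q and T genes.

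The parts differed in how their sites were divided between the cell types. The K end, which runs from the first H2- gene to the first class II gene and holds H2-K1, had 2 ESC sites and 0 EB sites. The class II part had 5 ESC and 4 EB sites, of which 4 were shared, meaning that an ESC and an EB site overlapped by at least 1 bp. The class III part had 15 ESC and 13 EB sites with 7 shared, and the class I part 24 ESC and 10 EB sites with 7 shared. Over the stretch 39.1% of ESC sites (18 of 46, interval 25.1 to 54.6) were shared, against 48.6% of all autosomal ESC sites, and 66.7% of EB sites (18 of 27, 46 to 83.5) against 68.3%. Both intervals hold the autosomal value.

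Within the class I part most of the imbalance in listed sites lay between the Q and the T genes, in the 531 kb from H2-Q10 to H2-T24 that include Pou5f1 and hold no H2- gene. There were 13 ESC and 3 EB sites, 11 of them ESC-only, 1 EB-only and 2 shared. Summed over all 14 sites of either list, the reads were less unequal, with 311 ESC and 149 EB RAD21 reads. The ratio of EB to ESC was 0.849 (0.694 to 1.035), which was not distinguishable from 1. These sums include the 2 shared sites and the EB-only site, among them ESC site 36 with 64 ESC and 45 EB RAD21 reads. They do not describe the ESC-only sites alone. Over all class I sites reads were 664, 330, 96 and 50, a ratio of 0.881 (0.769 to 1.01) for RAD21 and 0.947 (0.659 to 1.35) for IgG. Scaled to a median ratio of 1 at shared autosomal sites, the RAD21 ratio of the class I sites was 0.674 (0.589 to 0.771), an interval below 1. Division by GC class, described below, moved that ratio the other way. The M genes had 9 ESC and 6 EB sites, of which 5 were shared, and the T genes had 1 ESC-only and 1 EB-only site. The 212 kb from H2-D1 to H2-Q10 held 1 ESC site and 0 EB sites.

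**Figure D2:**
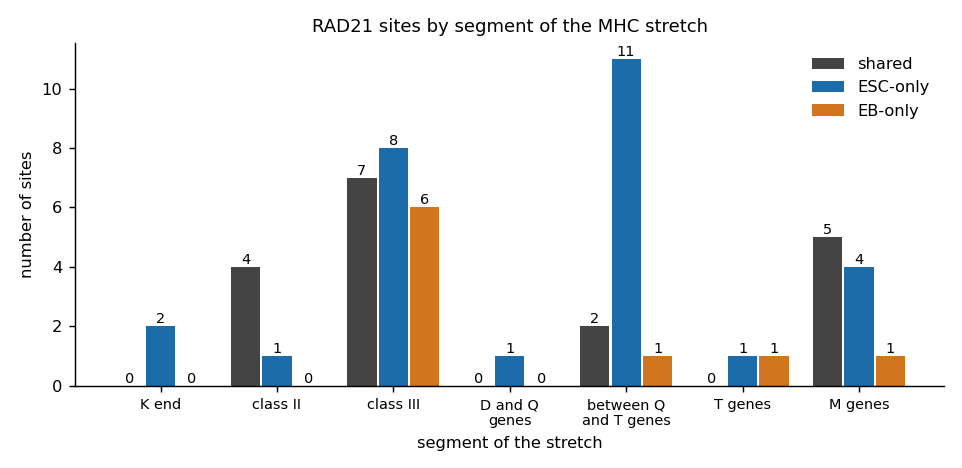
Number of RAD21 sites (y axis) in 7 segments of the stretch (x axis), as shared sites (dark grey), ESC-only sites (blue) and EB-only sites (orange). The 11 ESC-only sites between the Q and T genes are the highest bar, and the class II segment holds 4 shared and 0 EB-only sites.

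Of the 5 class II sites 4 were in both lists (80% of ESC sites, interval 28.4 to 99.5), and RAD21 reads were compared over all 5. The 5 sites had 108 ESC RAD21, 101 EB RAD21, 17 ESC IgG and 13 EB IgG reads in sum. The EB to ESC ratio was 1.66 (interval 1.25 to 2.19) for RAD21 and 1.39 (0.621 to 3.04) for IgG. All shared autosomal sites together had a ratio of 1.31 (1.3 to 1.32). Scaled to a median ratio of 1 at those shared sites, the class II ratio was 1.27 (0.958 to 1.68), an interval that holds 1. The median GC content of the class II sites was 43.1%.

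One class II site lay in a gene that acts in peptide loading. H2-DMa codes for a chain of H2-DM, which exchanges the peptide in the groove of class II molecules. ESC site 3 (34272063 to 34272820, summit 34272354, score 113.59) and EB site 1 (34271912 to 34272655, summit 34272385, score 115.82) began upstream of H2-DMa (34272127 to 34276046, plus strand). Their summits lay in a UTR of the gene, 227 and 258 bp from its start. Reads at the ESC summit were 26, 24, 5 and 4. Both sites had been called for an excess over IgG, so RAD21 above IgG here was set by the calling. The EB to ESC ratio was 1.64 (0.90 to 2.96).

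A pair of sites stood between H2-DMb1, the other chain of H2-DM, and Tap1, a subunit of the transporter that carries peptides to class I molecules. ESC site 4 and EB site 2 (34306030 to 34307078, score 230.87, the highest of the class II part) lay 16393 and 16480 bp from the start of H2-DMb1. Reads at the summit of EB site 2 were 25, 29, 2 and 3, a ratio of 2.06 (1.16 to 3.66). EB site 3 (34307599 to 34308317, score 133.53) and ESC site 5 lay 16658 and 16577 bp upstream of Tap1, with 21, 21, 2 and 1 reads and a ratio of 1.77 (0.92 to 3.41). The counts in EBs at least equalled those in ESCs at both, although the EB library held fewer reads.

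H2-Ob codes for a chain of H2-O, an inhibitor of H2-DM. ESC site 7 (34386516 to 34387646, score 103.79) and EB site 4 lay in an intron of H2-Ob, 11189 bp from its start, with 19, 23, 3 and 3 reads at the ESC summit and a ratio of 2.14 (1.12 to 4.16). ESC site 6, named after its values were seen, lay in an intron of the same gene and was the only ESC-only site of the class II part, with 18, 3, 4 and 3 reads and a ratio of 0.30 (0.06 to 1.01). The ratios of the 2 sites in this gene lay on opposite sides of 1. At ESC site 6 a low EB count was favoured by its absence from the EB list, so the 2 intervals cannot be set against each other. No difference between them was tested.

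Just beyond the last class II gene, at the border of the class III part, ESC site 8 and EB site 5 (34486152 to 34486704, score 97.6) stood 4945 and 4930 bp upstream of H2-Ea-ps, the alpha chain pseudogene of the I-E molecule. Reads at the EB summit were 28, 16, 0 and 1. The ratio was 1.01 (0.51 to 1.94), and no IgG read of the ESC library fell there, which allows up to 3 reads.

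In the class III part, with 21 sites of either list, RAD21 reads summed to 364 in ESCs and 237 in EBs, and IgG reads to 56 and 37. The EB to ESC ratio was 1.15 (0.975 to 1.36) for RAD21 and 1.20 (0.771 to 1.85) for IgG. The highest ESC scores were those of ESC site 19 (35315184 to 35316100, score 135.88, 1896 bp upstream of Ncr3-ps) and ESC site 10 (34576693 to 34577511, score 119.68, in an intron of BC051142). At ESC site 19 reads were 34, 6, 5 and 2, a ratio of 0.31 (0.11 to 0.75), and the site was ESC-only. At ESC site 10 they were 25, 13, 4 and 3, a ratio of 0.92 (0.43 to 1.87), and the site was shared.

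Of the 9 EB-only sites of the stretch, 6 lay in the class III part. EB site 11 (35093237 to 35094059, score 144.98) lay in a UTR of Hspa1b, a heat shock protein gene, with 4, 28, 1 and 4 reads. Its ratio of 12.4 (4.34 to 48.7) was the highest of the stretch, while within 1000 bp of the Hspa1b start reads were 5, 7, 4 and 2. EB site 13 (35118163 to 35119002, score 52.32) lay in an exon of Gm10501 with 4, 11, 2 and 1 reads and a ratio of 4.87 (1.44 to 21). Both were listed in EBs alone and picked for high EB to ESC ratios, which their intervals do not take into account. No CTCF match lay near either summit, at 1e-05 or at 1e-04. ESC site 17 and EB site 14, named after their values were seen, overlap and count as shared, but their summits lay apart, at 35158282 (22, 8, 0 and 1 reads) and 35158995 (6, 12, 6 and 2).

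The class I part held the 2 strongest sites of the stretch, and both were shared. ESC site 46 (37340243 to 37341283, score 483.43) ranked 53 among the 15085 autosomal ESC sites. It lay 5732 bp upstream of Olfr94, an olfactory receptor gene, and the nearest H2- start was that of H2-M3, 66477 bp away. Reads were 71, 37, 5 and 4, a ratio of 0.92 (0.60 to 1.39). EB site 27 was the same site with a score of 238.25.

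ESC site 36 (36133650 to 36134743, score 420.28, rank 125) lay in an intron of A930015D03Rik, 23378 bp from the start of H2-T24. Reads were 64, 45, 6 and 1, a ratio of 1.25 (0.83 to 1.85). The overlapping EB site 20 had the highest EB score of the stretch, 349.73, at rank 203 of 10781. Both of these sites had been called for an excess over IgG in both cell types, so RAD21 above IgG there was set by the calling. Neither site differed between the cell types beyond counting error.

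The ESC-only sites with the lowest EB counts also lay in the class I part. ESC site 25 (35639268 to 35640039), 3389 bp upstream of Pou5f1, which codes for the pluripotency factor OCT4, had 17, 0, 2 and 3 reads. With a count of 0 taken to allow 3 reads, it was at least 3.20-fold lower in EBs, and the exact interval, which also takes in the error of the ESC count, began at 2.33-fold. ESC site 26 (35645980 to 35646948) lay in the coding sequence of Pou5f1, with 17, 1, 5 and 1 reads and a ratio of 0.10 (0.00 to 0.67). ESC site 33 (36010453 to 36011367) in a UTR of 2310014H01Rik had 17, 1, 5 and 0 reads and the same ratio. ESC site 44 (37119192 to 37120279), 7032 bp from the start of H2-M5, had 14, 0, 5 and 4 reads, at least 2.63-fold lower in EBs by the same rule, with an interval that began at 1.87-fold. The EB RAD21 count was 0 or 1 at all 4 of them. They were listed in ESCs alone and were then picked for the lowest EB to ESC ratios. Low EB counts were therefore favoured by the choice of sites, which the bounds and intervals do not take into account.

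EB site 19 (35772494 to 35772951, score 101.13) in an intron of Sfta2 was the EB-only site of the class I part with the highest ratio, with 7, 16, 3 and 3 reads and a ratio of 4.05 (1.58 to 11.6). ESC site 23 (35602359 to 35603258, score 109.54), chosen after its values were seen, was the one site between H2-D1 and H2-Q10 and lay 4180 bp upstream of H2-Q10. It had 26, 2, 2 and 1 reads and a ratio of 0.14 (0.02 to 0.54), and 63.5% of the 35 base words around its summit were unique.

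Both K end sites were ESC-only. ESC site 1 (34105241 to 34106260, score 67.48) lay 10018 bp from the start of the pseudogene H2-K2, with 19, 6, 0 and 0 reads and a ratio of 0.56 (0.18 to 1.46). ESC site 2 (34214231 to 34214936, score 85.54) lay 14621 bp upstream of H2-Oa, with 19, 12, 3 and 3 reads and a ratio of 1.12 (0.50 to 2.43). Neither ratio was distinguishable from 1 at this depth.

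Over the 55 sites of either list (the 46 ESC sites and the 9 EB-only sites) RAD21 reads summed to 1174 in ESCs and 686 in EBs, a ratio of 1.035 (0.941 to 1.14). Of these, 9 were called higher in EBs, against 17.4% of autosomal sites called, and 8 lower, against 18.1%. The calls follow the lists in large part: 7 of the 9 sites called higher were EB-only, the other two being ESC sites 4 and 7 of the class II part, and all 8 called lower were ESC-only. The summed ratio was 1.21 (1.05 to 1.38) at the 18 shared, 0.585 (0.493 to 0.692) at the 28 sites found in ESCs alone and 3.03 (2.29 to 4.02) at the 9 found in EBs alone. Over all autosomes it was 1.31, 0.436 and 2.85. A summed ratio below 1 at ESC-only sites and above 1 at EB-only sites was favoured by the lists that define them, here and over all autosomes. The intervals do not take that into account. The interval at the ESC-only sites of the stretch did not hold the autosomal value. At 6 of the 28 ESC-only sites the EB ratio was above 1.

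**Figure D3:**
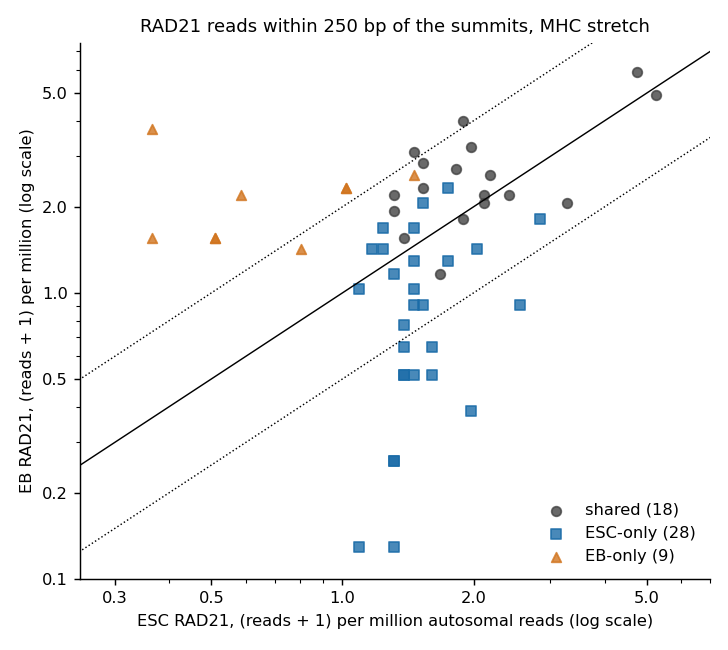
RAD21 reads within 250 bp of the summit at the 55 sites of either list, as reads plus 1 scaled to the autosomal reads of the library (RPM), in ESCs (x axis) and EBs (y axis), both on a log scale. Circles are the 18 shared, squares the 28 ESC-only and triangles the 9 EB-only sites, some points coincide, the solid line marks equal values and the dotted lines 2-fold. EB-only sites lie above the solid line, and ESC-only sites spread from slightly above it to far below.

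The EB to ESC ratio also moved with GC content in the libraries. In random autosomal windows of the same width it was 1.4 in the lowest of 5 GC classes (median GC 33.7%) and 0.689 in the highest (50.1%). The median GC was 45.0% where sites were shared, 48.2% where they were ESC-only and 46.7% where they were EB-only. With each site divided by the ratio of its GC class, 12 sites were called higher and 5 lower, and the 5 were ESC sites 23, 25, 26, 33 and 44. The part of GC content in the differences between the libraries was not tested further.

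CTCF motifs were about as frequent as at other RAD21 sites. A match lay near 30 of 46 ESC summits (65.2%, interval 49.8 to 78.6), against 58.8% of autosomal ESC sites, and near 13 of 27 EB summits (48.1%, 28.7 to 68.1), against 55.6%. With 1e-04 of positions passing, the shares were 87.0% against 86.2%, and 74.1% against 81.2%. Random windows of the same width held a match in 0.555% and 5.305%. By kind, 11 of 18 shared, 19 of 28 ESC-only and 4 of 9 EB-only sites had a match at 1e-05. Of these 34 matches 17 lay on each strand, and the summit lay on the 3′ side of the match, in the direction in which the matches are printed above, at 23. The median distance from the centre of the match to the summit was 55.5 bp, and the highest was 124.5 bp. Of the class II sites, ESC sites 4 and 7, both called higher in EBs, had a match only at 1e-04.

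RAD21 was near background at the H2- gene starts, with 1 clear exception. The 42 starts had 451 ESC RAD21 and 222 EB RAD21 reads in sum, and the RAD21 to IgG ratio was 1.13 (0.982 to 1.3) in ESCs and 1.18 (0.958 to 1.45) in EBs. Over all autosomal gene starts it was 1.19 and 1.31. Median counts were 10.5, 4, 7 and 4 reads. The exception was H2-DMa, with 36, 31, 6 and 5 reads, and the next highest RAD21 counts of any H2- gene were 22 in ESCs and 12 in EBs.

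H2-DMa was the one H2- gene with a summit within 1000 bp of its start, in ESCs (1 of 42, against 2.1% of autosomal genes) and in EBs (1 of 42, against 1.86%). Its high count at the start thus takes in the reads of those called sites and is not a separate observation. RAD21 was at least 2-fold above IgG, with an interval above 1, at 3 of 42 starts in ESCs (H2-DMa, H2-M6-ps and H2-M5), where 6.83% of autosomal starts were called, and at 1 in EBs (H2-DMa), where 6.68% were. At H2-DMa the ratio was 5.51 (2.30 to 16.0) in ESCs and 5.55 (2.14 to 18.3) in EBs, an excess favoured by the calling of the sites in its window. The median distance from an H2- start to the nearest summit was 30.9 kb in ESCs and 44.5 kb in EBs.

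**Figure D4:**
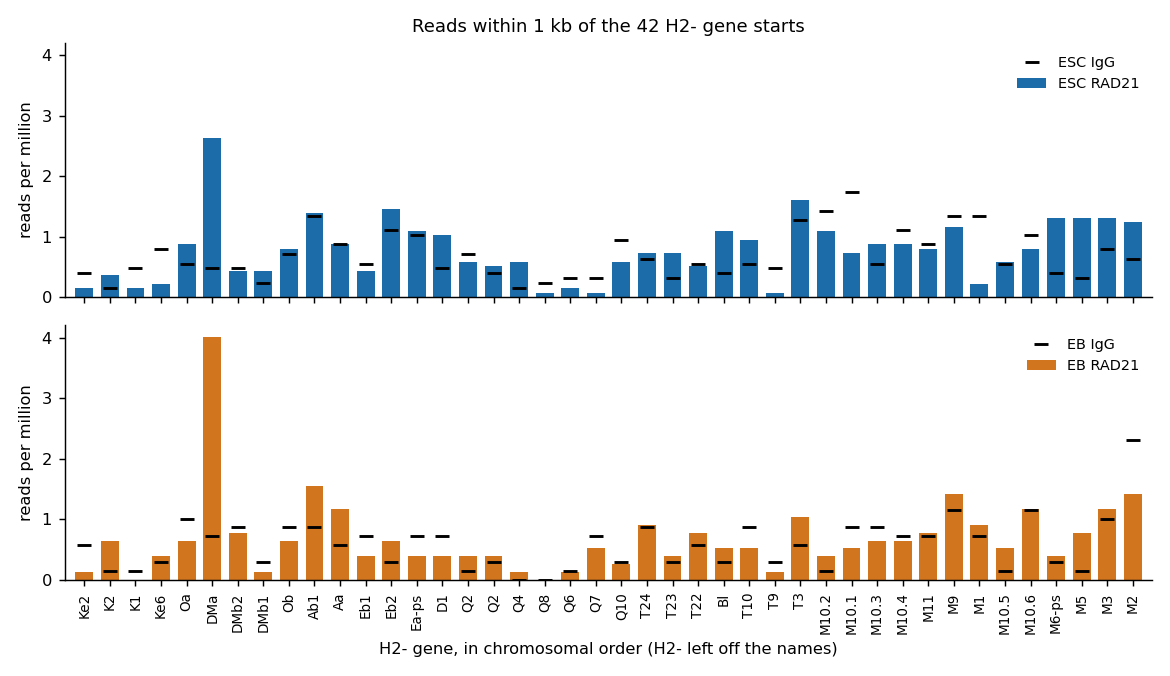
Reads, scaled to the autosomal reads of each library (RPM), within 1000 bp of each of the 42 H2- gene starts (y axis) in chromosomal order (x axis), with RAD21 as bars and IgG as black dashes, ESC above and EB below. H2-DMa stands above all other genes in both RAD21 libraries, while at the other genes dashes lie above some bars and below others.

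H2-K1 and H2-D1 are the classical class I genes, which present peptides to cytotoxic T cells. H2-K1 (34132962 to 34137278, minus strand) had 2, 0, 6 and 1 reads, so that neither RAD21 count exceeded 3 reads and no ratio was formed. H2-D1 (35399675 to 35404444, plus strand) had 14, 3, 6 and 5 reads, a ratio of EB to ESC RAD21 of 0.38 (0.07 to 1.36). H2-T23, which codes for Qa-1, a ligand of natural killer cell receptors, had 10, 3, 4 and 2. Only 41.7% of the 35 base words around the H2-T23 start were unique, which limits its counts. H2-M3, which presents formylated peptides, had 18, 9, 10 and 7 and a ratio of 0.89 (0.35 to 2.08). None of these 4 was distinguishable between the cell types at this depth.

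At the classical class II genes ESC RAD21 was at the level of ESC IgG. H2-Ab1, the beta chain of the I-A molecule, had 19, 12, 17 and 6 reads, H2-Aa, its alpha chain, 12, 9, 11 and 4, and H2-Eb1, the beta chain of I-E, 6, 3, 7 and 5. In ESCs the RAD21 to IgG ratios were 1.03, 1.00 and 0.79. Of the assistants of peptide loading besides H2-DMa, H2-DMb2 had 6, 6, 6 and 6 reads, H2-DMb1 6, 1, 3 and 2, H2-Oa 12, 5, 7 and 7, and H2-Ob 11, 5, 9 and 6. Their intervals for RAD21 over IgG all held 1.

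No H2- gene start was called higher (against 4.4% of autosomal starts) or lower (against 3.58%) in EBs. The summed EB to ESC ratio was 0.872 (0.739 to 1.03) for RAD21 and 0.837 (0.694 to 1.01) for IgG. It was 0.991 (0.744 to 1.31) at the 10 class II and 0.807 (0.655 to 0.990) at the 30 class I genes, where IgG had nearly the same ratio, 0.808 (0.643 to 1.01). Of genes with at least 10 RAD21 reads in both libraries together, the highest ratios were those of H2-M1 (3, 7, 17 and 5 reads, 4.13, interval 0.94 to 24.8), H2-K2 (5, 5, 2 and 1, 1.77) and H2-DMb2. The lowest were those of H2-M6-ps (18, 3, 5 and 2, 0.30, 0.06 to 1.01), H2-Ea-ps (15, 3, 13 and 5, 0.35) and H2-M10.2 (15, 3, 18 and 1, 0.35). All 6 intervals held 1.

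The H2-Ke genes, which bear the prefix but code for no MHC molecule, had 2, 1, 5 and 4 reads (H2-Ke2) and 3, 3, 10 and 2 reads (H2-Ke6). Together their RAD21 to IgG ratio was 0.306 (0.087 to 0.887) in ESCs, below 1 on few reads, and 0.597 (0.124 to 2.52) in EBs. The 7 Q gene records had 35 and 14 RAD21 reads in sum, a RAD21 to IgG ratio of 0.825 in ESCs and 1.14 in EBs. The 7 T and Bl genes had 78 and 33 with ratios of 1.35 and 1.14, and the 13 M genes 169 and 83 with 1.01 and 1.05. The intervals of the ratios of the Q, T and Bl, and M genes all held 1.

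Many class I genes are near-copies of each other, which limits the reads that can be placed. Of 35 base words, the length of the reads, 80.1% were unique in the stretch, 88.7% in the class II part, 50.6% from H2-D1 to H2-Q10 and 54.2% over the T genes. The starts of H2-Q8, H2-Q6 and H2-Q7 had 30.0%, 32.6% and 35.3%, and 5 of the 42 starts, H2-T23 among them, were under 50%. At those 3 Q genes RAD21 reads were 1, 2 and 1 in ESCs and 0, 1 and 4 in EBs. IgG reads were as few, 3, 4 and 4 in ESCs. Low counts there cannot be told apart from reads that were not placed.

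Between neighbouring summits of the stretch, the longest intervals without a site of either list ran from 36555440 to 36863181 (308 kb, with H2-M10.4, H2-M11, H2-M9 and H2-M1) and from 36251321 to 36555440 (304 kb, with 6 genes from H2-T10 to H2-M10.3). Unique words made up 71.8% and 71.5% there. The third of these (35395205 to 35602854, 208 kb) held H2-D1 and 6 Q gene records at 51.0% unique words. The median interval was 45.9 kb. After the last summit, at 37340691, no site followed for the 280 kb to the end of the stretch (74.2% unique words), which hold H2-M3 and H2-M2, and the next summit of either list lay beyond it, at 38163439, 823 kb away.

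The parts were also compared as a whole. Over the stretch the EB to ESC ratio was 0.833 (0.812 to 0.854) for RAD21 and 0.848 (0.825 to 0.872) for IgG. The class II part was highest in RAD21, at 1.05 (0.967 to 1.15), with IgG at 0.876 (0.790 to 0.971). The class III part was at 0.828 and 0.794, the class I part at 0.812 (0.787 to 0.839) and 0.875 (0.845 to 0.906), and the K end at 0.776 and 0.688. With 1000 bp around every summit left out, the RAD21 ratio of the class II part was 0.980 (0.891 to 1.08), that of the class III part 0.784 and that of the class I part 0.807. GC content was 47.5%, 49.7% and 44.7% in these parts.

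Genes of antigen presentation outside the H2- names were read in the same way, as 25 records of 23 symbols. Erap1, which trims peptides for class I, was the one with a summit within 1000 bp of its start in both lists (against 2.1% and 1.86% of autosomal genes), with 43, 35, 5 and 1 reads. Its window takes in the reads of those called sites, so RAD21 above IgG there was favoured by the calling. RAD21 was called above IgG at 4 records in ESCs (Erap1, Irf1, Irf2 and 1 of the 2 Ciita records) and at 3 in EBs (Erap1, Irf2 and Canx), against 6.83% and 6.68% of autosomal starts. At Canx reads were 23, 19, 19 and 3, and IgG was called lower in EBs. No record was called higher in EBs (against 4.4%), and 1 was called lower (against 3.58%), Tapbp, the loading chaperone tapasin, with 16, 2, 11 and 4 reads. Tap1 had 8, 4, 4 and 4 reads, Psmb8, an immunoproteasome subunit, 7, 3, 2 and 1, and B2m, the light chain of class I, 14, 13, 8 and 10.

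Of 18 genes of the class III part, among them complement, cytokine and heat shock genes, 0 had a summit within 1000 bp of the start in either list and 0 had RAD21 called above IgG, against 6.83% and 6.68%. None was called higher in EBs, against 4.4% of autosomal starts, and 2 were called lower, against 3.58%. These were Cfb, complement factor B, with 19, 3, 10 and 1 reads, and Notch4, a receptor of the Notch family, with 17, 2, 17 and 1. IgG was called lower in EBs at Notch4 as well. The stretch held 286 gene records without the H2- prefix, which include these 18 genes and Tap1, Tap2, Psmb8 and Psmb9. Of the 286, 9 had a summit at the start in ESCs (against 2.1%) and 9 in EBs (against 1.86%). In EBs 7 were called higher (against 4.4%) and 11 lower (against 3.58%), Cfb and Notch4 among the latter.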

How the data were processed

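RAD21-GFP and IgG ChIP-seq libraries of ESCs and EBs were analysed, 1 library per group, grouped by the sample labels. The authors sequenced 35 base reads and deposited their positions on mm9, 1 read per line, used here as read counts. The aligner is not given in the sources used here. No position and strand occurred 2 times on the main chromosomes of any library. The deposited EB IgG file ends within a line on chromosome X and the ESC IgG file has 7 broken lines, so libraries were scaled by autosomal reads. The authors called peaks with MACS against the IgG library of the same cells. Each deposited peak has a score, -10 times the log10 of its p-value (lowest 50.01 in both lists), and each summit a height, the pile-up signal of that library, which was not used. The study gives the p-value limit as 1e-05 and, elsewhere, as 1e-04.

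Reads were moved to the centre of fragments of 204 bp (ESC) and 195 bp (EB), estimated from strand cross-correlation, and counted around summits and gene starts (the 5′ end of the gene record). The K end, class II, class III and class I parts were cut at H2-Oa, the end of H2-Ea-ps and H2-D1. Intervals were Clopper-Pearson for shares and conditional binomial for ratios of counts. A count of 0 was taken to allow 3 reads. The CTCF matrix was learned from consensus matches near summits on even-numbered chromosomes (2833 sequences). Unique words were counted over the whole mm9 genome. R1/E cells and the reference genome come from different inbred strains.

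Named were the H2- genes with a summit at the start, the classical genes, the assistants of class II loading, H2-M3, H2-T23 and the 3 highest and lowest EB to ESC ratios among genes with at least 10 RAD21 reads. Named sites were the 2 highest scores of each part and list and the 3 most extreme ESC-only and EB-only ratios, with ties, and the sites that overlap them; others are marked where named. The members, lists and rules were chosen with earlier results of these data known. Python 3.11.15, numpy 2.4.6, scipy 1.17.1 and pandas 2.3.3 were used. Counting, overlap, interval, motif and uniqueness steps were tested on simulated data.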

Additional observations from a re-analysis of the deposited data

How the results depend on the processing

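No paired analysis was possible because each group had 1 library and the labels give no replicate numbers. The main values were recomputed under alternative settings, and each value counts once for every setting tried. Of these comparisons, 128 stayed within the interval of the value, or within 1.5 times for a count, 43 moved beyond it and 2 reversed. For the ratios of single sites and gene starts, 574 comparisons stayed within the interval and 6 moved beyond it. The causes were not tested, except where the setting itself limits the count. A score of at least 100 left 15 ESC sites (0 in the K end, 2 in class II, 5 in class III and 8 in class I) and 10 EB sites (1 in class III and 5 in class I), and 80% of those ESC sites were shared. A motif rate of 1e-04 gave 87.0% of ESC and 74.1% of EB sites. Within 5 kb, 4 H2- starts had an ESC summit (H2-DMa, H2-Ea-ps, H2-D1 and H2-Q10) and 2 an EB summit (H2-DMa and H2-Ea-ps).

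The RAD21 to IgG ratio at ESC sites was 10.1 within 150 bp and 5.27 within 500 bp, and at EB sites 5.87 within 500 bp. A pseudocount of 0.1 read put the median of single EB ratios at 8.14. At H2- starts it was 1.37 in ESCs within 500 bp (2.02 for class II genes) and 0.933 in EBs within 2000 bp.

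Scaling to a median of 1 at shared autosomal sites put the EB to ESC ratio at 0.924 at shared sites, which reversed it, 0.448 at ESC-only sites, 0.793 at all 55 sites, 0.884 in class III, 0.674 in class I, 0.668 at H2- starts and 0.618 at class I starts. It called 3 sites higher (EB sites 11, 13 and 19), 14 sites lower, and 4 H2- starts lower (H2-Eb2, H2-Ea-ps, H2-M10.2 and H2-M6-ps). Division by GC class, chosen after seeing the data, gave 1.41 at shared sites, 0.769 at ESC-only sites, 1.28 at all 55 sites, 1.5 in class III, 1.07 in class I, 1.10 at H2- starts and 1.01 at class I starts, which reversed the last. It called 5 sites lower, and 2 H2- starts higher (H2-DMa and H2-M1). Subtracting IgG put the ESC-only ratio at 0.479 and the EB-only ratio at 4.20, and within 150 bp the latter was 4.23. Within 2000 bp 2 H2- starts were called lower (H2-Eb2 and H2-M6-ps). The class III part outside the sites, an alternative also chosen after seeing the data, was at 0.784, and the whole stretch scaled by chromosome 17 was at 0.859. The EB to ESC ratio at class II sites stayed between 1.27 and 1.89.

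At the 55 sites the median count was 19 RAD21 reads in ESCs and 11 in EBs, which sets the width of the intervals of single sites.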
